A study of Mus musculus with 18 samples.

Results

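The complement and coagulation proteins that liver releases into plasma were followed in livers of female mice of the B6C3F1 hybrid, a cross often chosen for cancer bioassays. Of 35 genes on the list, 33 had a probe set whose platform annotation names that gene alone, and these 33 were analysed, out of 12169 genes tested. All 33 passed the filter on dim probe sets, and Cpb2 and C3 were not analysed here. The members are a list by function, drawn up with earlier results of these arrays known. The probe set with the highest mean signal stood for its gene.

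The arrays came from 18 mice in 6 groups of 3, each array from the liver of 1 animal. Exposure began at 5 weeks of age and lasted 13 weeks, so that animals were sampled at 18 weeks, per the labels. 3 groups received 1,5-naphthalenediamine (2000 ppm), N-(1-naphthyl)ethylenediamine dihydrochloride (2000 ppm) or pentachloronitrobenzene (8187 ppm) in feed on 7 days a week, and they share 1 feed control group. A further group received 2,3-benzofuran by gavage at 240 mg/kg in corn oil on 5 days a week, with a control group gavaged with corn oil alone at 5 ml/kg. The labels class 1,5-naphthalenediamine and 2,3-benzofuran as positive liver carcinogens and the other chemicals as negative, and each chemical was given at a single dose. The series title asks for liver expression markers of tumours in long-term bioassays.

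Hepatocytes make most plasma complement and clotting proteins. In coagulation, tissue factor with factor VII starts a chain of proteases that ends with thrombin cutting fibrinogen into fibrin, and plasmin later dissolves the clot. Several of the proteases need a vitamin K-dependent modification of glutamate residues to bind membranes. In complement, the lectin, classical and alternative routes build convertases that cut C3 and C5, and C5b then gathers C6 to C9 into the membrane attack complex. Liver factors of the HNF4, HNF1 and C/EBP families, and STAT proteins downstream of interleukin-6, are known regulators of many of these genes.

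RefSeq promoter entries were held for 25 of the 33 genes (build GRCm38.p6). The 250 bases before the annotated start are shown for F7, F10, Hc and C9, the 4 genes with an entry among the 7 that were lower with both carcinogens, and for Fgb, which held the most motif matches. Capitals mark motif matches found on either strand, and each run reads 5′ to 3′ along the gene's own strand. F7 (chr8:13025784-13026033) and F10 (chr8:13037058-13037307), on the plus strand, are neighbours on chromosome 8. Hc (chr2:35061413-35061662) lies on the minus strand, C9 (chr15:6445096-6445345) on the plus strand and Fgb (chr3:83049864-83050113) on the minus strand.
F7: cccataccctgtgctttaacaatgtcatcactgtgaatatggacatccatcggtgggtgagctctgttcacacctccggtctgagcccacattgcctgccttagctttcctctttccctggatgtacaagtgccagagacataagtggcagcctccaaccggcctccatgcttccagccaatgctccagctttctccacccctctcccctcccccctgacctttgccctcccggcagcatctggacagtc
F10: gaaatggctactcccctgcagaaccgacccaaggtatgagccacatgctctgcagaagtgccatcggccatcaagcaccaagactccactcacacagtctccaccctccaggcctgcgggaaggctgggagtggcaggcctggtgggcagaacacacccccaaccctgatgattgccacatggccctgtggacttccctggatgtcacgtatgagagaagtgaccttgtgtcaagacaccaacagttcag
Hc: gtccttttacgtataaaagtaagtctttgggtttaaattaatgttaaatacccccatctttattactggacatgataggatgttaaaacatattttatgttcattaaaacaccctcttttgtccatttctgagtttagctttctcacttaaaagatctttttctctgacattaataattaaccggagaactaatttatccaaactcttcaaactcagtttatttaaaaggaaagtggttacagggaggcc
C9: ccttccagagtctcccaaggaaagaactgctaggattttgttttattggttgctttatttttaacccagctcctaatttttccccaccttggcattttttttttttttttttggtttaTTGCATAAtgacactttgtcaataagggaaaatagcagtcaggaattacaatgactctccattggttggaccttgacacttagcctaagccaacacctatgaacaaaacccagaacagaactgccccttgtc
Fgb: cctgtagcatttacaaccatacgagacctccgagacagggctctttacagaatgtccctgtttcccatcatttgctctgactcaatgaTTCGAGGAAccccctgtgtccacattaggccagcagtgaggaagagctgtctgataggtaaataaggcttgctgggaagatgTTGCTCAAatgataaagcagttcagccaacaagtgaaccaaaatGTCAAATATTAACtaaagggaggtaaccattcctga
The motifs searched were CAAAGTCCA and a repeat of AGGTCA with 1 base between its copies for HNF4, GTTAAT followed by NN and TTNAC for HNF1, TTGCNNAA for C/EBP and TTCNNNGAA for STAT. No match overlapped another in a member promoter. The C/EBP motif was present in 6 of the 25 member promoters (24%, in Fga, Fgb, F9, F11, Klkb1 and C9) and in 9.55% of 27025 promoters. A STAT motif was present in 6 (Fga, Fgb, F9, Pros1, Masp2 and C8a), against 7.18% of all promoters. The HNF1 motif was present in Fgb and C4bp, against 0.107% of all promoters, and neither HNF4 motif was in a member window, against 0.381% and 0.037%. F7, F10 and Hc held no exact match to these motifs in the window. Among the promoters of members that were lower with at least 1 carcinogen, 5 of 16 held the C/EBP motif and 3 of 16 the STAT motif, and among the other members 1 of 9 and 3 of 9. A match describes the letters only, and a missing match does not exclude a site of similar letters.

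Signals were log2 values as the authors deposited them. Over all tested genes the median deposited change was above 0 with every chemical (0.175 with 1,5-naphthalenediamine, 0.109 with 2,3-benzofuran, 0.155 with N-(1-naphthyl)ethylenediamine and 0.148 with pentachloronitrobenzene), and 0.0387 between corn oil and feed controls. The shift depended on signal: for 1,5-naphthalenediamine the median deposited change was 0.295 among genes of mean signal 6 to 8 and 0.113 among those of 12 or more. Of the 33 members, 30 had a mean signal of 9 or more, as had 1785 genes in all. Each change was therefore also computed after removing each array's trend of deviation against mean signal, and this level-centred change, with its standard error (SE), is the change given below unless the deposited one is named. A gene is called lower or higher where the limma adjusted p was under 0.05 on both scales with the same sign, and the p printed is the larger of both. The RNA integrity number ranged from 7.4 to 9.4 and had its lowest group mean with N-(1-naphthyl)ethylenediamine (7.83, against 8.33 to 8.97). The 18S ribosomal signal stood high on 5 arrays (7.93 to 11.6, against at most 6.97 on the other arrays), all from treated mice. These are animals 4 of the 1,5-naphthalenediamine group, 12 and 14 of the N-(1-naphthyl)ethylenediamine group and 6 and 10 of the 2,3-benzofuran group. The tissue label went with a high albumin (Alb) signal, between 14.37 and 14.49 on all 18 arrays. Of 10 listed hepatocyte markers 8 were measured. Among these Ass1 averaged 7.41, and the others from 12.25 (Tat) to 14.47 (Apoa2).

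Members were called lower with both carcinogens, and no member was called lower with either negative chemical. With 1,5-naphthalenediamine, 13 of 33 members were lower and 0 were higher, where 6.85% of all genes tested were lower and 11.1% higher. With 2,3-benzofuran, 15 were lower and 0 higher, against 6.29% and 12.8% of all genes. Among the genes of mean signal 9 or more, 4.37% and 9.3% were lower in these comparisons. The members' median change was -0.40 and -0.36, against -0.01 for all genes in both comparisons. The change was below 0 for all 33 members in each, and on the deposited scale for 31 (all but Kng1 and Mbl2) and 33. Treated and control arrays did not overlap on the deposited scale for 11 and 19 members that were lower, where 11.6% and 13.6% of all genes were lower without overlap. In bulk tissue, fewer cells of a type and less RNA per cell cannot be told apart.

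With N-(1-naphthyl)ethylenediamine, 0 members were lower and 2 higher (Proc and Serpinf2), where 3.57% and 7.08% of all genes were. With pentachloronitrobenzene no member was called, where 2.4% of genes were lower and 2.7% higher. Nor was any between the corn oil and feed controls, where 0% of genes were lower and 0.0329% higher. The members' medians in these 3 comparisons were -0.06, -0.07 and -0.04. Deposited values lay wholly above the feed controls for 10 members with N-(1-naphthyl)ethylenediamine and 7 with pentachloronitrobenzene, where 31% and 29.2% of all genes did. The sign of small changes depended on the scale: on the deposited scale 7, 6 and 12 of the 33 were below 0, and level-centred 22, 25 and 22.

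**Figure D1:**
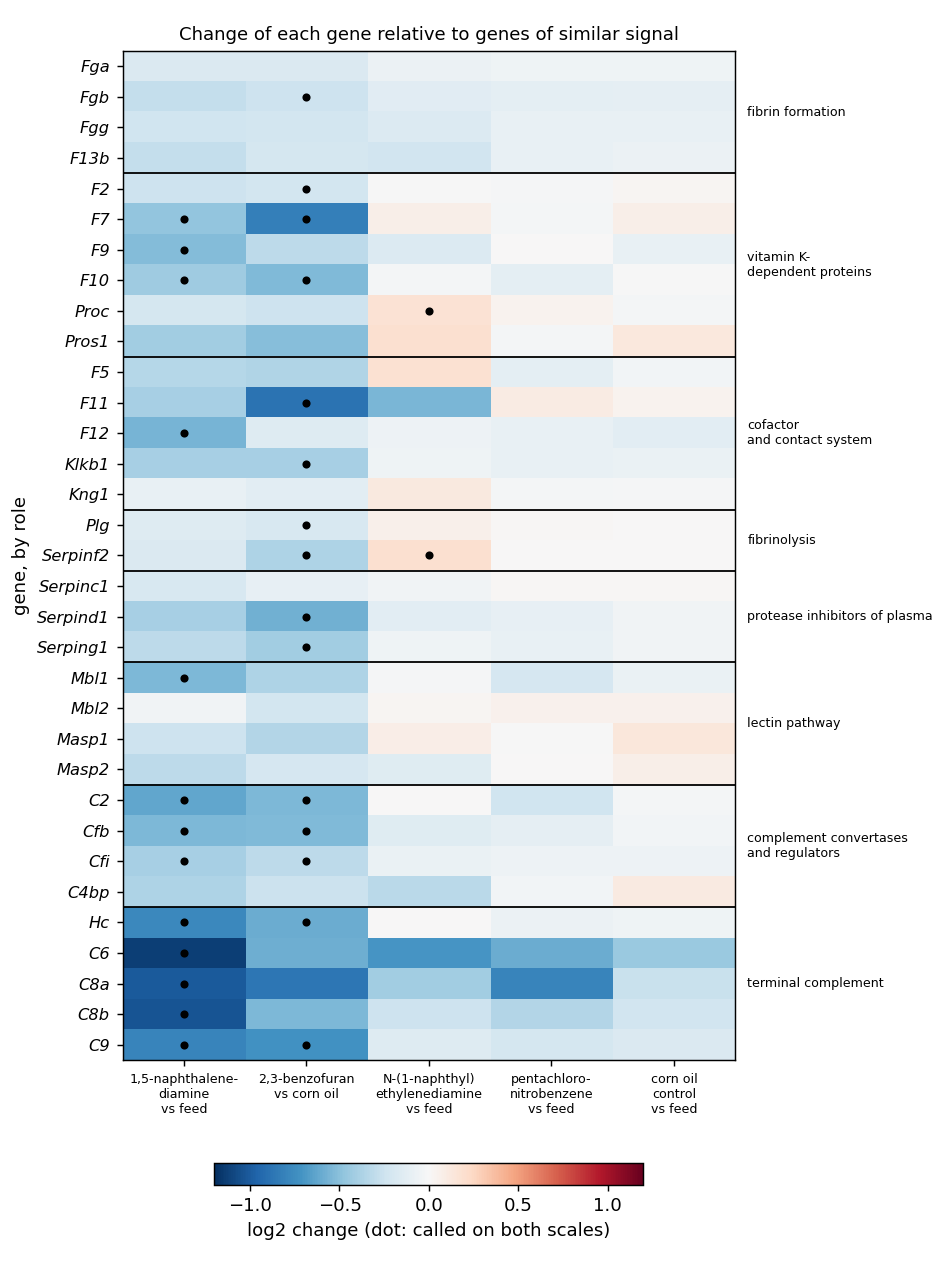
Level-centred log2 change of 33 genes (rows, by role) in 5 comparisons (columns), on a colour scale from -1.2 to 1.2, with a dot where the gene was called on both scales. The columns of both carcinogens are blue throughout and carry 13 and 15 dots, and the other columns carry 2, 0 and 0.

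The mean over the 33 genes set the carcinogen groups apart on the level-centred scale. Level-centred, it lay between 11.003 and 11.17 with 1,5-naphthalenediamine and between 10.99 and 11.13 with 2,3-benzofuran, and between 11.33 and 11.60 in the 12 other arrays. As deposited, the 1,5-naphthalenediamine arrays (11.07 to 11.23) overlapped the feed controls (11.18 to 11.55), while the 2,3-benzofuran arrays (11.05 to 11.16) lay below the corn oil controls (11.32 to 11.49). The feed controls spread widely, with animal 28 highest and animal 29 lowest on the deposited scale. The counts moved with single arrays: 5 members were lower with 1,5-naphthalenediamine without feed control 28, 7 without treated animal 4, 6 without treated animal 5 and 21 without feed control 29. For 2,3-benzofuran, 8 were lower without corn oil control 24 or without treated animal 8, and 9 without treated animal 6.

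**Figure D2:**
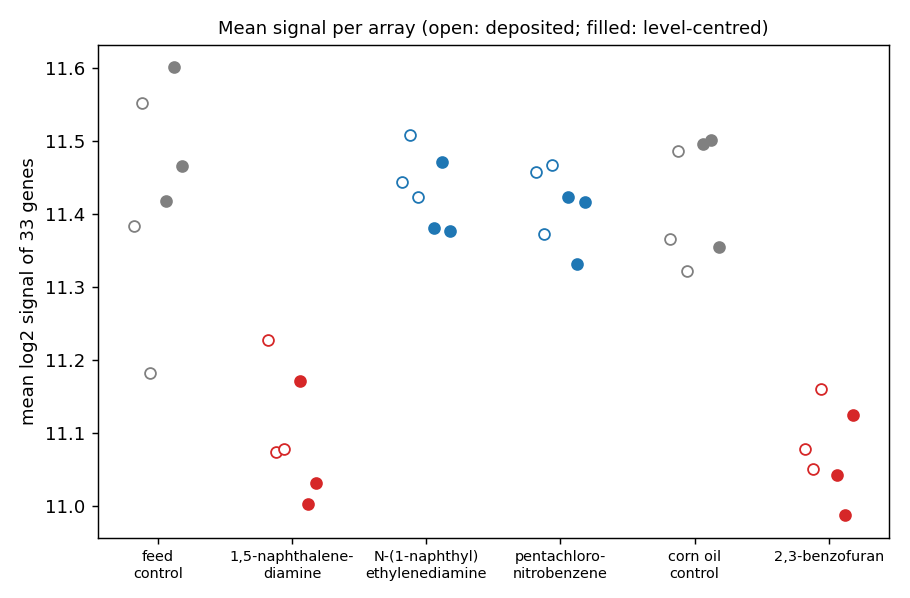
Mean log2 signal of the 33 genes on each array (vertical axis) by group (horizontal axis), open points as deposited and filled points level-centred, 3 mice per group. Filled points of both carcinogens lie at or below 11.17 and those of the other groups at or above 11.33.

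**Figure D3:**
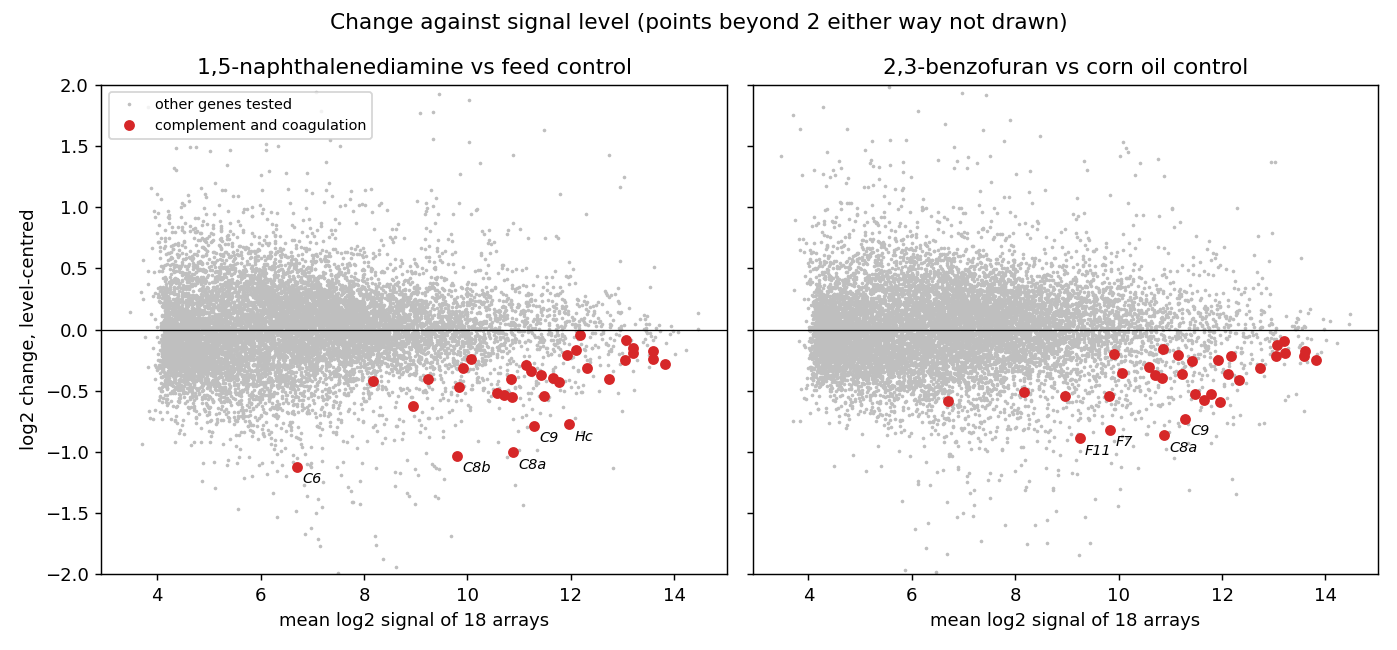
Level-centred log2 change of every gene tested (grey) and of the 33 members (red) against the mean log2 signal of 18 arrays, for 1,5-naphthalenediamine (left) and 2,3-benzofuran (right). All 33 red points lie below 0 in both panels, at medians of -0.40 and -0.36, and changes beyond 2 either way are not drawn.

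The genes of the membrane attack complex fell most with 1,5-naphthalenediamine, where all 5 were lower, by -0.78 to -1.13. Hc encodes C5, whose cleavage starts the complex (probe set 1419407_at, chromosome 2). Here and below, the values of a group are deposited log2 signals in order of animal number. Its signal was 11.97, 12.41 and 11.95 in the feed controls and 11.64, 11.35 and 11.51 with 1,5-naphthalenediamine. It was 12.15, 12.29 and 11.92 in the corn oil controls and 11.53, 11.51 and 11.79 with 2,3-benzofuran. All 6 arrays of the carcinogen groups lay below all 6 control arrays. The change was -0.78 ± 0.12 with 1,5-naphthalenediamine (1.71-fold lower, adjusted p = 0.00125) and -0.59 ± 0.12 with 2,3-benzofuran (1.51-fold lower, adjusted p = 0.00464). With the negative chemicals Hc read 12.33, 12.34 and 12.16 (N-(1-naphthyl)ethylenediamine) and 12.27, 12.07 and 12.26 (pentachloronitrobenzene), within the range of the feed controls.

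C6 encodes the protein that first binds C5b (probe set 1449308_at, chromosome 15, mean signal 6.70). It read 7.09, 7.70 and 6.77 in the feed controls and 6.44, 6.15 and 6.36 with 1,5-naphthalenediamine, with no overlap, a change of -1.13 ± 0.18 (adjusted p = 0.00225). In the corn oil controls it read 6.99, 6.82 and 6.62 and with 2,3-benzofuran 6.54, 6.19 and 6.52, and the change of -0.59 ± 0.18 did not pass (adjusted p = 0.115). C6 also read below the feed controls in the corn oil controls (-0.45 ± 0.18, adjusted p = 0.559), with N-(1-naphthyl)ethylenediamine (-0.71 ± 0.18, adjusted p = 0.0517) and with pentachloronitrobenzene (-0.59 ± 0.18, adjusted p = 0.146), and none of these passed.

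C8a and C8b encode chains of C8, which inserts into the membrane, and lie next to each other on chromosome 4. C8a (probe set 1428012_at) read 10.93, 12.04 and 11.05 in the feed controls and 10.87, 10.35 and 10.39 with 1,5-naphthalenediamine, so that the highest treated array came close to the lowest control (-1.004 ± 0.29, adjusted p = 0.0333). C8b overlapped between these groups, at 9.84, 10.62 and 9.81 against 9.84, 9.09 and 8.93, and was also lower (-1.03 ± 0.26, adjusted p = 0.0189). With 2,3-benzofuran their changes were -0.87 ± 0.29 (adjusted p = 0.0559) and -0.54 ± 0.26 (adjusted p = 0.263), and neither was called. C8a also read below the feed controls on average with pentachloronitrobenzene, at 11.04, 10.33 and 10.82 (-0.79 ± 0.29, adjusted p = 0.128). With N-(1-naphthyl)ethylenediamine it changed by -0.41 ± 0.29 (adjusted p = 0.559). C8b changed by -0.35 ± 0.26 and -0.25 ± 0.26 with these chemicals (adjusted p = 0.657 and 0.875), and none of these passed. Among the members these genes varied most within groups, C8a with a standard deviation (SD) of up to 0.61.

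C9 forms the pore of the complex (probe set 1422815_at, chromosome 15). It read 11.32, 11.88 and 11.39 in the feed controls and 11.18, 10.83 and 10.77 with 1,5-naphthalenediamine, without overlap (-0.79 ± 0.20, adjusted p = 0.0223). With 2,3-benzofuran it read 10.70, 10.38 and 11.34 against 11.52, 11.51 and 11.26 in the corn oil controls, and animal 10 of the treated group lay inside the control range (-0.73 ± 0.20, adjusted p = 0.0229). Hc and C6 kept their calls with 1,5-naphthalenediamine without any 1 array. C8a, C8b and C9 lost theirs there without feed control 28 or without treated animal 4 or 5. C9 lost its call with 2,3-benzofuran without corn oil control 22 or 24 or treated animal 6 or 8.

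Of the convertase genes and regulators, 3 of 4 were lower with each carcinogen, and they were the same genes: C2, Cfb and Cfi. Cfb encodes factor B, the protease of the alternative route convertase (probe set 1417314_at, chromosome 17). It read 11.64, 11.75 and 11.38 in the feed controls, 11.28, 11.18 and 11.23 with 1,5-naphthalenediamine, 11.62, 11.70 and 11.54 in the corn oil controls and 11.22, 11.17 and 11.19 with 2,3-benzofuran. Both treated groups lay wholly below their controls and spread little (SD 0.05 and 0.03). The changes were -0.54 ± 0.06 (adjusted p = 0.00315) and -0.53 ± 0.06 (adjusted p = 0.00114), or 1.46-fold and 1.44-fold lower, and neither call was lost without any 1 array. With N-(1-naphthyl)ethylenediamine and pentachloronitrobenzene Cfb averaged 11.61 ± 0.06 and 11.65 ± 0.08 (SD, n = 3), near the feed control mean of 11.59 ± 0.19.

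Cfi encodes factor I, which cuts C3b and C4b (probe set 1418724_at, chromosome 3). Its signal was 12.78, 13.00 and 12.61 in the feed controls and 12.68, 12.42 and 12.51 with 1,5-naphthalenediamine, which overlapped, and 12.75, 12.91 and 12.71 in the corn oil controls and 12.56, 12.49 and 12.53 with 2,3-benzofuran, which did not. It changed by -0.40 ± 0.07 (adjusted p = 0.0264) and -0.31 ± 0.07 (adjusted p = 0.0336). The first call was lost without 3 of the 6 arrays compared, each in turn, and the second without 5 of 6.

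C2, the protease of the classical and lectin route convertase, lies beside Cfb on chromosome 17. By its brightest probe set (1441912_x_at) it read 9.08, 9.17 and 8.83 in the feed controls and 8.60, 8.70 and 8.67 with 1,5-naphthalenediamine, without overlap (-0.62 ± 0.10, adjusted p = 0.0201). In the corn oil controls it read 8.90, 9.25 and 9.09 and with 2,3-benzofuran 8.50, 8.79 and 8.91, with a narrow overlap (-0.54 ± 0.10, adjusted p = 0.0344). The other probe sets of C2 disagreed in size, with -0.25 and -0.18 for 1,5-naphthalenediamine and -0.22 and -0.32 for 2,3-benzofuran. Both calls were lost when the probe sets were averaged (-0.35 and -0.36). They were also lost in the fit without probe sets of shared sequence. C4bp, an inhibitor that acts on C4b, changed by -0.37 ± 0.09 and -0.26 ± 0.09 and was not called.

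**Figure D4:**
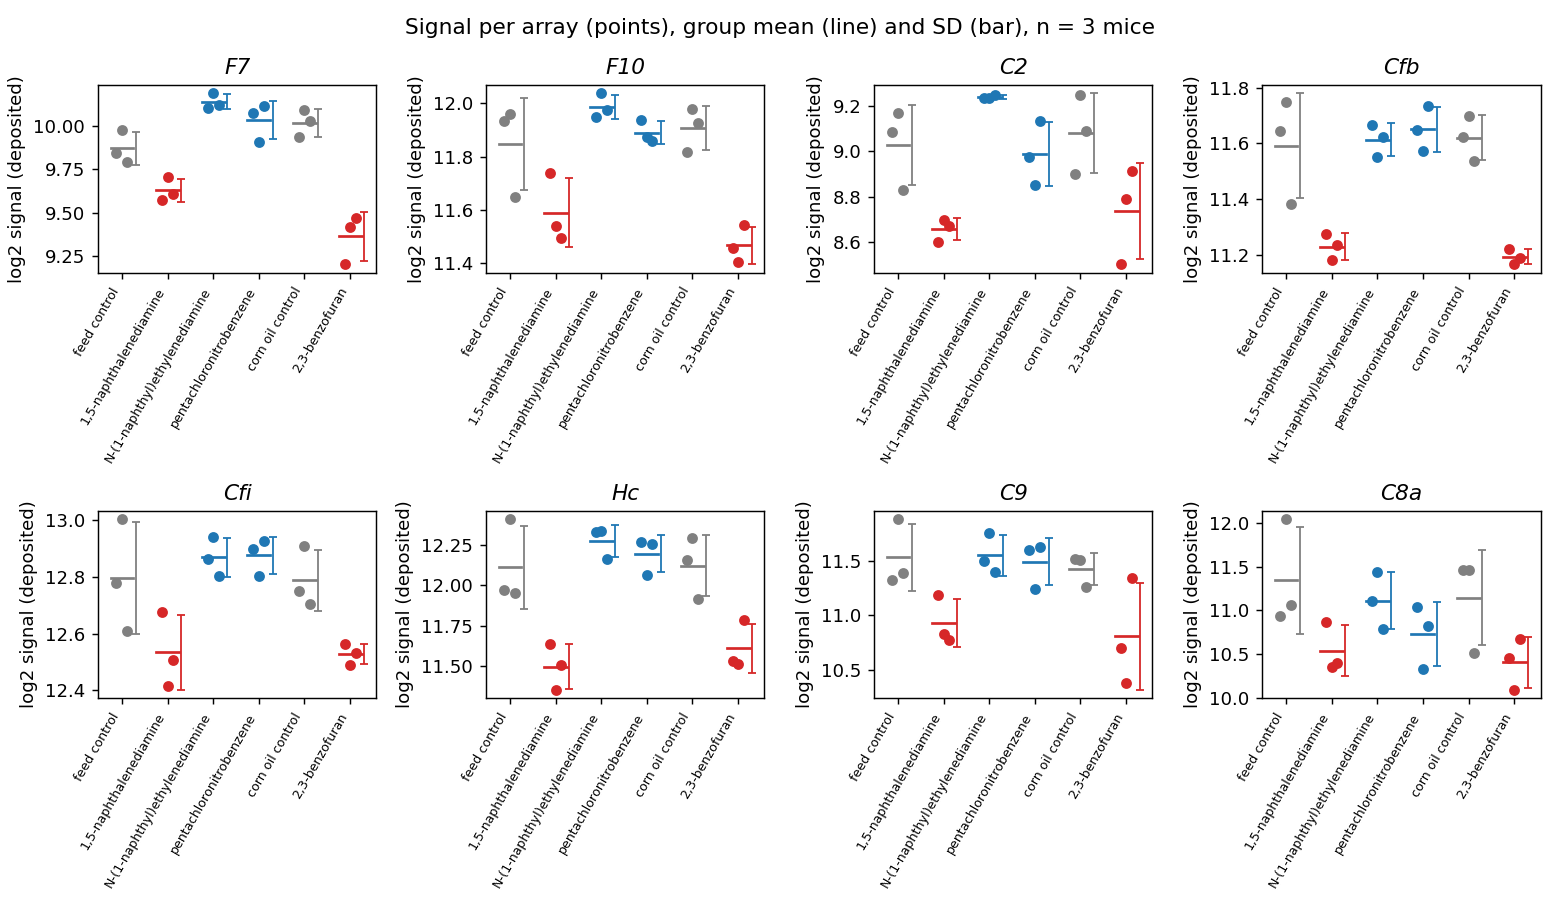
Deposited log2 signal (vertical axes, not starting at 0) of 8 genes on each array (points) in 6 groups, with group mean (line) and SD (bar), n = 3 mice: controls grey, positive carcinogens red, negative chemicals blue. The red points of Hc and Cfb lie below all other points, and those of C8a and C9 spread into the range of other groups.

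In the lectin pathway, 1 of 4 genes was lower with 1,5-naphthalenediamine and 0 with 2,3-benzofuran. Mbl1, a mannose-binding lectin, changed by -0.54 ± 0.12 with 1,5-naphthalenediamine at an adjusted p just inside the threshold (0.05 as rounded), and its arrays overlapped, at 10.71, 11.12 and 10.53 against 10.68, 10.39 and 10.29. Its change with 2,3-benzofuran was -0.37 ± 0.12 (adjusted p = 0.173). Mbl2, the other mannose-binding lectin (probe set 1418787_at, chromosome 19), read 12.27, 12.09 and 11.89 in the feed controls, 12.24, 12.20 and 12.15 with 1,5-naphthalenediamine, 12.04, 12.30 and 12.22 in the corn oil controls and 12.02, 12.02 and 12.10 with 2,3-benzofuran. Its groups overlapped throughout, with changes of -0.04 ± 0.06 and -0.22 ± 0.06. Masp1 and Masp2, the proteases that ride on these lectins, changed by -0.20 to -0.35 in both comparisons by their brightest probe sets and were not called. The other kept probe sets of Masp1 changed by -0.12 to -0.51 with 1,5-naphthalenediamine and by -0.41 to -0.59 with 2,3-benzofuran. That of Masp2 changed by -0.23 and -0.26.

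Among the 6 vitamin K-dependent genes, 3 were lower with each carcinogen, F7 and F10 with both. F7 encodes factor VII, which starts coagulation with tissue factor (probe set 1419321_at, chromosome 8). It read 9.84, 9.98 and 9.79 in the feed controls and 9.57, 9.70 and 9.61 with 1,5-naphthalenediamine, and 9.93, 10.09 and 10.03 in the corn oil controls against 9.20, 9.42 and 9.47 with 2,3-benzofuran. Neither pair of groups overlapped, and the drop with 2,3-benzofuran left all 3 treated arrays below every other array of the series. The change was -0.47 ± 0.08 with 1,5-naphthalenediamine (adjusted p = 0.0378) and -0.82 ± 0.08 with 2,3-benzofuran (1.76-fold lower, adjusted p = 5.55e-05). The call with 1,5-naphthalenediamine was lost without feed control 27 or 28 or treated animal 2 or 5. With N-(1-naphthyl)ethylenediamine F7 read 10.10, 10.19 and 10.12, above all feed controls on the deposited scale, and its level-centred change was 0.07 ± 0.08 (adjusted p = 0.555). With pentachloronitrobenzene it read 10.07, 9.91 and 10.11, overlapping the feed controls.

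F10 encodes factor X, which activates prothrombin (probe set 1449305_at, chromosome 8). It read 11.82, 11.98 and 11.92 in the corn oil controls and 11.46, 11.40 and 11.54 with 2,3-benzofuran, without overlap (-0.53 ± 0.06, adjusted p = 0.00112). In the feed controls it read 11.93, 11.96 and 11.65 and with 1,5-naphthalenediamine 11.74, 11.54 and 11.49, with overlap through feed control 29 (-0.43 ± 0.06, adjusted p = 0.0241). The 2 other probe sets of F10 changed by -0.24 and -0.26 with 1,5-naphthalenediamine and by -0.68 and -0.81 with 2,3-benzofuran. With the probe sets averaged, the call with 1,5-naphthalenediamine was lost (-0.31). That call was also lost without 4 of the 6 arrays compared, each in turn.

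F9, the X-linked gene of factor IX (probe set 1427393_at), read 10.64, 10.71 and 10.54 in the feed controls and 10.42, 10.20 and 10.34 with 1,5-naphthalenediamine, without overlap (-0.52 ± 0.07, adjusted p = 0.00644). It changed by -0.31 ± 0.07 with 2,3-benzofuran (adjusted p = 0.107). F2 encodes prothrombin (probe set 1418897_at, chromosome 2). It read 13.07, 13.12 and 13.10 in the corn oil controls and 12.94, 12.88 and 12.94 with 2,3-benzofuran (-0.22 ± 0.05, adjusted p = 0.0452), a call lost whichever of the 6 arrays was left out. In the feed controls F2 read 13.10, 13.11 and 12.87 and with 1,5-naphthalenediamine 12.97, 12.96 and 12.79 (-0.25 ± 0.05, adjusted p = 0.158).

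Proc and Pros1 encode the anticoagulants protein C and protein S, which together inactivate clotting cofactors. Proc (probe set 1418845_at, chromosome 18) read 11.93, 11.92 and 11.74 in the feed controls, 11.82, 11.86 and 11.77 with 1,5-naphthalenediamine and 12.20, 12.22 and 12.19 with N-(1-naphthyl)ethylenediamine. The last group lay above every other array of the series, and the rise of 0.18 ± 0.04 passed (adjusted p = 0.0186). It was lost without treated animal 12 or feed control 27. Proc changed by -0.21 ± 0.04 with 1,5-naphthalenediamine (adjusted p = 0.616) and by -0.25 ± 0.04 with 2,3-benzofuran (adjusted p = 0.0591). Pros1 changed by -0.42 ± 0.12 and -0.51 ± 0.12 with the carcinogens, at adjusted p of 0.384 and 0.106, and its deposited changes were smaller (-0.15 and -0.29).

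Of 5 cofactor and contact system genes, F12 was lower with 1,5-naphthalenediamine, and F11 and Klkb1 with 2,3-benzofuran. F11 encodes factor XI (probe set 1451788_at) and lies next to Klkb1 on chromosome 8. It read 9.46, 9.54 and 9.43 in the corn oil controls and 8.99, 8.83 and 8.52 with 2,3-benzofuran, without overlap (-0.89 ± 0.17, 1.85-fold lower, adjusted p = 0.00677). It read 9.41, 9.59 and 9.07 in the feed controls and 9.49, 9.14 and 8.97 with 1,5-naphthalenediamine, which overlapped (-0.40 ± 0.17, adjusted p = 0.487). N-(1-naphthyl)ethylenediamine arrays were far apart, at 8.69, 9.47 and 8.86 (-0.55 ± 0.17, adjusted p = 0.143). Pentachloronitrobenzene arrays read 9.69, 9.68 and 9.58.

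F12 encodes factor XII, which starts the contact system (probe set 1420496_at, chromosome 13). It read 10.92, 11.07 and 10.73 in the feed controls and 10.59, 10.56 and 10.50 with 1,5-naphthalenediamine, without overlap (-0.55 ± 0.06, 1.47-fold lower, adjusted p = 0.0039). With 2,3-benzofuran it read 10.84, 10.74 and 10.86, against 10.76, 10.93 and 10.85 in the corn oil controls (-0.16 ± 0.06, adjusted p = 0.808). Whether the F12 or F11 effect differs between the carcinogens was not tested. Klkb1, plasma prekallikrein, changed by -0.40 ± 0.08 with 1,5-naphthalenediamine (adjusted p = 0.101) and by -0.40 ± 0.08 with 2,3-benzofuran (adjusted p = 0.0362). The call with 2,3-benzofuran was lost without 4 of the 6 arrays compared, each in turn.

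Kng1 encodes the kininogens from which bradykinin is cut (probe set 1416676_at, chromosome 16). It read 13.00, 13.19 and 12.83 in the feed controls, 13.05, 13.06 and 13.03 with 1,5-naphthalenediamine, 12.92, 13.20 and 13.01 in the corn oil controls and 12.99, 12.88 and 12.99 with 2,3-benzofuran. These groups overlapped, and the changes of -0.09 ± 0.06 and -0.12 ± 0.06 did not pass. A second Kng1 probe set gave -0.33 and -0.39. F5, the cofactor of activated factor X, changed by -0.34 ± 0.07 and -0.36 ± 0.07 (adjusted p = 0.245 and 0.0663), and its second probe set by -0.63 in both comparisons.

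Of the 4 fibrin genes 1 was lower with 2,3-benzofuran and 0 with 1,5-naphthalenediamine. Fga, Fgb and Fgg, the fibrinogen chains, lie together on chromosome 3, and F13b carries factor XIII, which crosslinks fibrin. Fgb (probe set 1428079_at) read 13.88, 14.09 and 13.76 in the feed controls and 13.91, 13.65 and 13.64 with 1,5-naphthalenediamine, which overlapped, and 13.89, 13.91 and 13.75 against 13.73, 13.59 and 13.51 with corn oil and 2,3-benzofuran, which did not. It fell with 2,3-benzofuran (-0.25 ± 0.08, adjusted p = 0.034), and the call was lost without 4 of the 6 arrays compared, each in turn. The other fibrin genes changed by -0.17 to -0.29 in both comparisons.

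Of the fibrinolysis genes, Plg and Serpinf2 were both lower with 2,3-benzofuran and neither with 1,5-naphthalenediamine. Serpinf2 encodes alpha-2-antiplasmin, the inhibitor of plasmin (probe set 1417498_at, chromosome 11). It read 12.02, 12.20 and 12.12 in the corn oil controls and 11.75, 11.78 and 11.94 with 2,3-benzofuran, without overlap (-0.37 ± 0.06, adjusted p = 0.0058). In the feed controls it read 12.04, 12.15 and 11.96, with 1,5-naphthalenediamine 11.96, 12.14 and 12.02 and with N-(1-naphthyl)ethylenediamine 12.43, 12.39 and 12.41. The first pair overlapped (-0.17 ± 0.06, adjusted p = 0.908), and the N-(1-naphthyl)ethylenediamine arrays lay above all others (0.20 ± 0.06, adjusted p = 0.039), a rise lost without any 1 of 5 arrays, those of the treated group and feed controls 27 and 28.

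Plg encodes plasminogen, the precursor of plasmin (probe set 1416729_at, chromosome 17). It read 13.19, 13.29 and 13.19 in the corn oil controls and 13.03, 13.07 and 13.09 with 2,3-benzofuran, a small but separate shift (-0.19 ± 0.04, adjusted p = 0.0378) that was called in 1 of the 6 fits without 1 array. With the feed control and 1,5-naphthalenediamine it read 13.19, 13.26 and 13.05 and 13.14, 13.16 and 13.11 (-0.15 ± 0.04, adjusted p = 0.685).

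Of the plasma protease inhibitors, 2 of 3 were lower with 2,3-benzofuran and 0 with 1,5-naphthalenediamine. Serpind1, heparin cofactor II (probe set 1418680_at, chromosome 16), read 11.62, 11.89 and 11.81 in the corn oil controls and 11.26, 11.48 and 11.12 with 2,3-benzofuran (-0.58 ± 0.07, 1.49-fold lower, adjusted p = 0.00086). In the feed controls it read 11.90, 11.71 and 11.64 and with 1,5-naphthalenediamine 11.56, 11.50 and 11.53, which did not overlap either (-0.40 ± 0.07, adjusted p = 0.0589). Serping1, the C1 inhibitor (probe set 1416625_at, chromosome 2), read 12.36, 12.52 and 12.28 with corn oil and 12.06, 11.92 and 12.15 with 2,3-benzofuran, without overlap (-0.41 ± 0.07, adjusted p = 0.00605), and changed by -0.31 ± 0.07 with 1,5-naphthalenediamine (adjusted p = 0.14). Serpinc1 encodes antithrombin, the main inhibitor of thrombin (probe set 1417909_at, chromosome 1). It read 13.20, 13.23 and 13.22 with corn oil and 13.14, 13.16 and 13.16 with 2,3-benzofuran, separate but close (-0.10 ± 0.04, adjusted p = 0.463), and with 1,5-naphthalenediamine it changed by -0.19 ± 0.04 (adjusted p = 0.376).

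The members lower with both carcinogens were F7, F10, C2, Cfb, Cfi, Hc and C9, which are 7 of the 13 lower with 1,5-naphthalenediamine and 7 of the 15 lower with 2,3-benzofuran. These comparisons share no arrays. Over all genes, 357 were lower in both, of 834 and 765. Another 6 members passed with 1,5-naphthalenediamine alone (F9, F12, Mbl1, C6, C8a and C8b) and 8 with 2,3-benzofuran alone (Fgb, F2, F11, Klkb1, Plg, Serpinf2, Serpind1 and Serping1). The difference between the carcinogens was not tested. Calls kept without any 1 array were F9, F12, Cfb, Hc and C6 with 1,5-naphthalenediamine and F7, F10, F11, Serpinf2, Serpind1, Serping1, Cfb and Hc with 2,3-benzofuran. With those 5 arrays of high 18S signal left out, 5 and 4 members were lower, where 3.72% and 1.09% of all genes were, a fit that leaves 1 array in the 2,3-benzofuran group, assumed to vary like the other groups. With the RNA integrity number as a covariate, 8 were lower with 2,3-benzofuran, where 3.66% of all genes were.

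The mean effect of the carcinogens was then set against the mean effect of the negative chemicals, each against its own control. This difference was below 0 for all 33 members (median -0.33, all genes -0.00444). By this test 20 were lower and 0 higher, where 3.34% of all genes were lower and 3.74% higher. Of genes of mean signal 9 or more, 9.36% were lower. It uses the same arrays as the comparisons above. All 6 vitamin K-dependent genes were among the 20, with F7 at -0.67 ± 0.07 (adjusted p = 2.48e-05), Pros1 at -0.56 ± 0.10 (adjusted p = 0.00905), F10 at -0.41 ± 0.05 and Proc at -0.34 ± 0.04. All 3 plasma protease inhibitors passed (Serpind1 -0.37, Serping1 -0.29, Serpinc1 -0.13), as did both fibrinolysis genes (Serpinf2 -0.37, Plg -0.21).

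Of the terminal complement genes, Hc (-0.65 ± 0.10, adjusted p = 0.000628) and C9 (-0.58 ± 0.18, adjusted p = 0.0474) passed. C6, C8a and C8b did not, at -0.21, -0.33 and -0.49 with 95% intervals that reach 0.12, 0.20 and -0.02. C2, Cfb, Cfi, F5, F12, Klkb1 and Masp1 were lower by the same test, at -0.28 to -0.47. Of the fibrin genes 0 of 4 passed, at -0.09 to -0.14.

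The count of members called in this difference depended on which measure of RNA quality was taken into account. With the RNA integrity number as a covariate 1 member was lower (F7, -0.63), where 0.526% of all genes were. With the beta-actin 3 prime minus 5 prime signal as a covariate 21 were lower, where 3.1% of all genes were. Without the 5 arrays of highest 18S signal, 4 were lower (F7, Proc, Serpinf2 and Hc), where 0.994% of genes were. With an index of 8 clock genes as a covariate, chosen after the data had been seen, 6 were lower, where 1.23% of genes were. That index ran from 2.47 to 2.70 with N-(1-naphthyl)ethylenediamine, from -0.69 to 2.59 in the corn oil controls, from -2.10 to -0.73 with 2,3-benzofuran and from -2.23 to 1.23 in the other groups. The part of RNA quality and of clock gene phase in the result was not tested. F7 passed with the RNA integrity number, without the high 18S arrays and with the clock gene index.

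**Figure D5:**
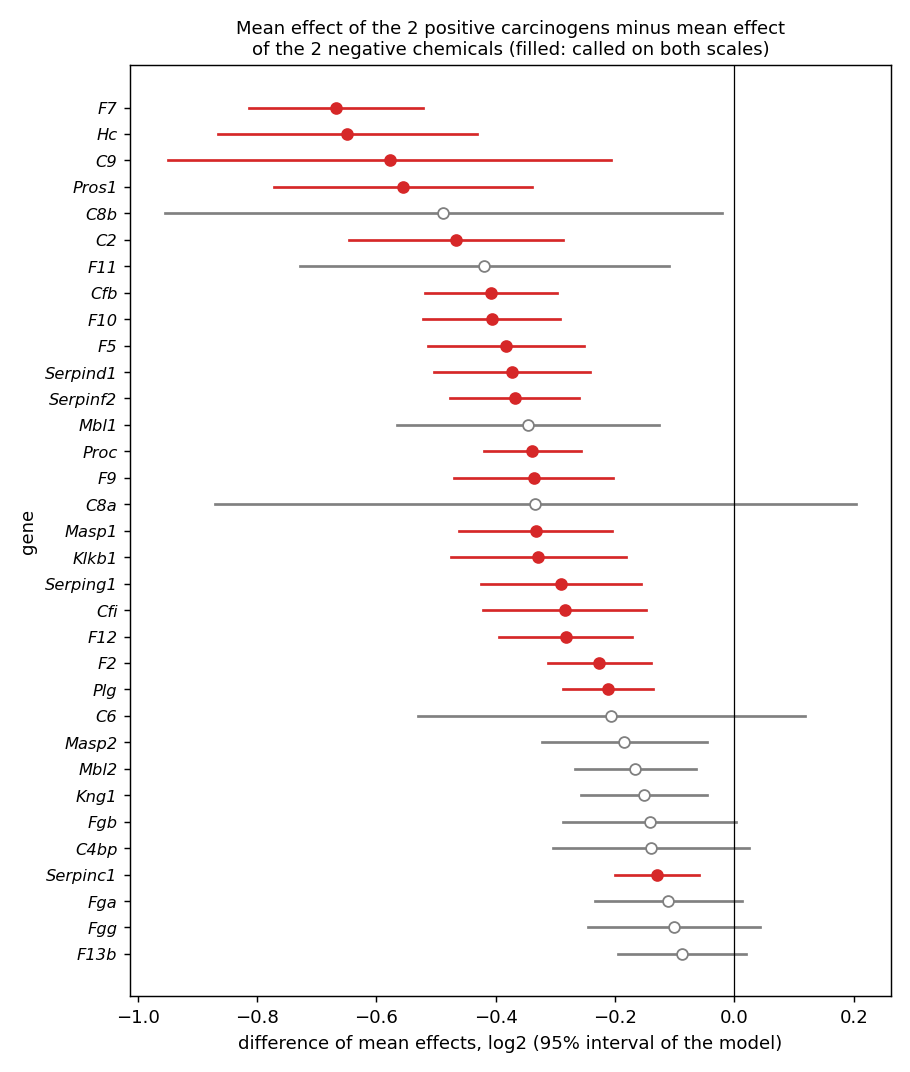
Difference between the mean effect of both positive carcinogens and the mean effect of both negative chemicals for 33 genes (rows, by size), as log2 with the 95% interval of the model, filled where called on both scales. All points lie left of 0, 20 are filled, and F7 (-0.67) and Hc (-0.65) lie farthest left.

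The effect of 2,3-benzofuran against corn oil was also set against the mean effect of the 3 feed chemicals. Here 3 members were lower and 0 higher, where 1.39% and 1.19% of all genes were. They were F7 (-0.68 ± 0.10, adjusted p = 0.00224), Proc (-0.25 ± 0.06, adjusted p = 0.0416) and Serpinf2 (-0.38 ± 0.08, adjusted p = 0.0126). Proc and Serpinf2 are the members that were higher with N-(1-naphthyl)ethylenediamine, 1 of those feed chemicals. The call of Proc was lost when any 1 of 14 of the 18 arrays was left out, that of Serpinf2 without corn oil control 24, and that of F7 was kept in all 18 of these fits. The count was 1 without corn oil control 24, 5 without corn oil control 22 and 6 without feed control 27. It was 0 with either covariate (RNA integrity number or clock genes) and without the 5 arrays of high 18S signal.

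Other liver-made complement and coagulation genes, 19 measured of 28 listed, had medians of -0.28 with 1,5-naphthalenediamine and -0.37 with 2,3-benzofuran. With 1,5-naphthalenediamine 5 were lower, among them Habp2, a plasma serine protease (-1.07 ± 0.20), Cfhr2, a factor H-related gene (-0.47 ± 0.07), and C1s1 and C1ra, proteases of the first complement component (-0.91 ± 0.07 and -0.48 ± 0.07). With 2,3-benzofuran 12 were lower, with C1s1 at -0.60 ± 0.07, Cfhr2 at -0.51 ± 0.07, Hgfac, a serine protease of plasma, at -0.47 ± 0.07, and the vitamin K-dependent protein Z gene Proz at -0.46 ± 0.07. Habp2 was lower there too (-1.14 ± 0.20, adjusted p = 0.00183), as it was with N-(1-naphthyl)ethylenediamine (-0.94 ± 0.20, adjusted p = 0.0116), where Hgfac was higher (0.23 ± 0.07). With pentachloronitrobenzene 0 were called. In the difference between carcinogens and negative chemicals 9 were lower, with Hgfac at -0.55 ± 0.06 and C1s1 at -0.52 ± 0.06.

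Of the vitamin K cycle genes, 4 measured of 5, the carboxylase Ggcx changed by -0.41 ± 0.12 and -0.45 ± 0.12 with the carcinogens and was not called (adjusted p = 0.482 and 0.217). Vkorc1, the target of warfarin, changed by -0.11 ± 0.05 and -0.01 ± 0.05. Its relative Vkorc1l1 was higher with 2,3-benzofuran (0.42 ± 0.10, adjusted p = 0.00679), and the processing protease Furin with N-(1-naphthyl)ethylenediamine (0.42 ± 0.13, adjusted p = 0.0409).

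Of coagulation and complement genes made mostly outside hepatocytes, 18 were measured of 27 listed. With 1,5-naphthalenediamine 3 were lower, Tfpi, Itgb2 and Fcna, and the same 3 were lower with 2,3-benzofuran, with Fcna, a macrophage ficolin, at -0.89 ± 0.13 and -0.75 ± 0.13. The thrombin receptor gene F2r was higher with 2,3-benzofuran (0.49 ± 0.13). Markers of other liver cells moved too. Of 11 Kupffer cell markers, 2 were lower with 1,5-naphthalenediamine and 3 with 2,3-benzofuran, at medians of -0.63 and -0.64, and 4 in the difference between carcinogens and negative chemicals (median -0.55). Their mean log2 signal ran from 7.20 to 7.82 in feed controls, 6.98 to 7.64 with 1,5-naphthalenediamine, 7.65 to 8.02 in corn oil controls and 7.18 to 7.60 with 2,3-benzofuran. Of 9 sinusoidal endothelial markers, 1 was lower with 1,5-naphthalenediamine and 3 with 2,3-benzofuran, at medians of -0.36 and -0.45, and of 8 stellate cell markers 0 and 2, at medians of -0.24 and -0.38. The mean signal of the stellate list ran from 6.76 to 6.95 with 2,3-benzofuran, below the 7.04 to 7.23 of its controls, and from 7.03 to 7.08 with 1,5-naphthalenediamine, inside the feed control range of 7.02 to 7.26. That of the lymphocyte list (5 of 8 measured, 0 and 1 called lower) was below the controls without overlap with both carcinogens, at 4.67 to 4.69 against 4.80 to 4.86 and at 4.65 to 4.78 against 4.89 to 4.94. The mean of the neutrophil list (4 of 6 measured, 0 called with either carcinogen) ran from 4.26 to 4.35 with 2,3-benzofuran, below the 4.54 to 4.87 of its controls. With 1,5-naphthalenediamine it ran from 4.84 to 5.21, overlapping the 4.51 to 5.07 of the feed controls. The mean of the cholangiocyte list (3 of 5 measured) ran from 4.65 to 4.82 with 2,3-benzofuran, below the 4.84 to 4.89 of its controls, and from 4.75 to 5.04 with 1,5-naphthalenediamine, overlapping the 4.99 to 5.22 of the feed controls, where Epcam was lower (-0.47 ± 0.15). These lists read near the array medians (4.25 to 4.35). Genes of mean signal under 6 had median deposited changes of -0.05 and -0.06 with the carcinogens. Of 4 measured platelet markers 1 was lower with 1,5-naphthalenediamine, 0 with 2,3-benzofuran and 1 with pentachloronitrobenzene. With the negative chemicals 0 Kupffer cell and 0 sinusoidal endothelial markers were called. With N-(1-naphthyl)ethylenediamine 2 of 8 stellate and 1 of 3 measured cholangiocyte markers were lower. The cholangiocyte mean of that group ran from 4.52 to 4.77, below the 4.99 to 5.22 of the feed controls. The 8 measured hepatocyte markers gave 1 lower (Apob, -0.52 ± 0.12) and 1 higher (Apoa2, 0.13 ± 0.04) with 1,5-naphthalenediamine, and 1 lower (Cps1, -0.24 ± 0.05) with 2,3-benzofuran, at medians of -0.05 and -0.06. Alb changed by 0.00 ± 0.04 and 0.04 ± 0.04. The part of the cell makeup in the fall of complement and coagulation genes was not tested.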

How the data were processed

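Liver RNA of 18 mice was measured on 18 Affymetrix mouse arrays, per the labels from 10 ug of RNA isolated with Trizol and RNeasy. Values are log2 signals as the authors deposited them, whose normalization and software the labels and headers do not state. Of 45101 probe sets, 64 controls were left out, 34945 name 1 gene and 932 several. Probe sets above their array's median in at least 3 arrays (24338) were kept, and each gene was represented by its probe set of highest mean (12169 genes). A model with 6 group means and 12 residual degrees of freedom was fitted with limma 3.58.1 in R 4.3.3 (eBayes with a trend) to deposited and to level-centred values. Level-centring removed each array's loess trend (span 0.3, 4 iterations) against mean signal. P-values were Benjamini-Hochberg adjusted over all genes. The fit was also run on simulated data with noise drawn independently for each probe set and array. Such data cannot show how effects shared across an array, beyond its signal trend, move the counts. Errors of changes are SE of the model, and those of group means are SD. Full values are given for called members without overlap, up to 8 per comparison, and for the member of highest mean in each role. Of other lists, called genes of the largest t (up to 4 per comparison) are named, and Habp2 also with 2,3-benzofuran, where its t ranks lower, after its values were seen; Ggcx, Vkorc1, Hnf4a, Cebpa and Alb are named for their role. Members and lists were chosen with earlier results of these data known. Chromosomes and neighbours come from RefSeq. Array number and signal over background limit the precision. Python 3.11.15 with matplotlib 3.10.9 drew the figures. Alternatives covered scale, filter, probe sets, RNA quality, controls, threshold, array weights and single arrays.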

Additional observations from a re-analysis of the deposited data

Results flagged for a closer look

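The effect of the positive carcinogens differed from that of the negative chemicals, by the limma contrast of both mean effects on both scales, for 20 members, all below 0. That contrast measures spread between mice, not between chemicals of a class. The level-centred differences were -0.67 for F7, -0.65 for Hc, -0.58 for C9, -0.56 for Pros1, -0.47 for C2, -0.41 for Cfb and -0.41 for F10. They were -0.38 for F5, -0.37 for Serpind1, -0.37 for Serpinf2, -0.34 for Proc, -0.34 for F9, -0.33 for Masp1 and -0.33 for Klkb1. For Serping1 the difference was -0.29, for Cfi -0.28, for F12 -0.28, for F2 -0.23, for Plg -0.21 and for Serpinc1 -0.13. All but Serpinc1, Masp1 and C9 kept the call without any 1 array.

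The effect of 2,3-benzofuran against corn oil differed from the mean effect of the 3 feed chemicals for F7 (-0.68), Serpinf2 (-0.38) and Proc (-0.25). The call of Proc was lost when any 1 of 14 of the 18 arrays was left out, and that of Serpinf2 without corn oil control 24. Groups of 3 are too small for a test of single outlying animals.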

How the results depend on the processing

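No paired analysis was possible because the animal numbers in the labels are not shared between groups. None of the alternatives run turned the direction of a called member. Scale mattered: on the level-centred scale alone 29 members were lower with 1,5-naphthalenediamine, 26 with 2,3-benzofuran, 4 with N-(1-naphthyl)ethylenediamine and 5 in 2,3-benzofuran against the feed chemicals, and after quantile normalization 28, 27, 4 and 6, with 1 lower with pentachloronitrobenzene. On the level-centred scale alone, 12% and 10.9% of all genes were lower with the carcinogens. On the deposited scale alone 7 were higher with N-(1-naphthyl)ethylenediamine and 1 with pentachloronitrobenzene, where 24.7% and 14.6% of all genes were higher. The 2 members higher with N-(1-naphthyl)ethylenediamine became 1 after quantile normalization or without the filter, and 0 with either RNA quality covariate, with the clock gene index, without the 5 arrays of high 18S signal or at an adjusted p under 0.01. Array weights gave 1 lower there.

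With the beta-actin 3 prime minus 5 prime signal as a covariate, 8 members were lower with 1,5-naphthalenediamine, where 5.04% of all genes were. The RNA integrity number as a covariate left 8 with 2,3-benzofuran, 1 in carcinogens against negative chemicals and 0 in 2,3-benzofuran against the feed chemicals, and the clock gene index left 9, 6 and 0. Of all genes, 3.66%, 0.526% and 0.164% were lower with the RNA integrity number, and 2.08%, 1.23% and 0.32% with the clock gene index. Without the 5 arrays of high 18S signal the counts were 5 with 1,5-naphthalenediamine, then 4, 4 and 0. At an adjusted p under 0.01 they were 5, 8, 13 and 1, where 2.8%, 2.33%, 1.59% and 0.312% of all genes were lower. With controls pooled, 13 were lower in 2,3-benzofuran against the feed chemicals, where 2.89% of all genes were, and corn oil against feed has no value.

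Leaving out 1 array in turn gave 5 to 21 lower members with 1,5-naphthalenediamine, 8 to 13 with 2,3-benzofuran, 0 to 1 lower and 0 to 2 higher with N-(1-naphthyl)ethylenediamine, 17 to 22 in carcinogens against negative chemicals and 1 to 6 in 2,3-benzofuran against the feed chemicals. The cause of these shifts was not tested. Where the 18S arrays are left out, N-(1-naphthyl)ethylenediamine and 2,3-benzofuran keep 1 array each, assumed to vary like the other groups. The clock gene index and the fit without probe sets of shared sequence were added after the data had been seen.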

Other observations

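Of 16 measured liver transcription factors and cytokine signal genes (18 listed), 0 were called with 1,5-naphthalenediamine. With 2,3-benzofuran 1 was lower, where 6.29% of all genes were. With N-(1-naphthyl)ethylenediamine 3 were higher, where 7.08% of all genes were. Hnf4a, a nuclear receptor of hepatocytes, changed by -0.06 ± 0.10 with 1,5-naphthalenediamine and -0.04 ± 0.10 with 2,3-benzofuran (limma adjusted p = 0.686 and 0.828), and Cebpa by -0.05 ± 0.17 and -0.26 ± 0.17 (adjusted p = 0.853 and 0.6). Socs3, a feedback inhibitor of STAT3 signalling, was lower with 2,3-benzofuran (-1.58 ± 0.44, adjusted p = 0.0176). With N-(1-naphthyl)ethylenediamine, Cebpb (0.89 ± 0.22, adjusted p = 0.0177), Cebpd (0.83 ± 0.23, adjusted p = 0.0274) and Nr5a2 (0.34 ± 0.11, adjusted p = 0.0498) were higher. That group had the lowest mean RNA integrity number, and with this number as a covariate 0.329% of all genes were higher there. As the number was low on all its arrays (7.7 to 8.1), this fit cannot tell RNA quality from the chemical.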
